A study of Mus musculus with 27 samples.

Results

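Gpnmb and 8 genes that mark lipid-associated macrophages (Trem2, Cd9, Cd63, Fabp4, Fabp5, Spp1, Lpl and Atp6v0d2) were followed in mouse hepatic stellate cells (HSCs) through acute and chronic liver injury. These 9 genes, of 53379 in the table, were listed by name, and the set was chosen by the size of the Gpnmb rise against healthy cells in most injured groups, so every comparison with healthy cells is given as a description only. All 9 were among the 18758 genes tested. HSCs are liver pericytes that store retinoid. They were sorted from perfused livers of male Balb/c mice by the ultraviolet fluorescence of their retinoid and lysed without culture, and their RNA was sequenced in bulk, with 27 libraries in 7 groups. Healthy mice, 10 to 12 weeks old, received no injection (n = 4), so that no group received mineral oil alone. Acute mice of the same age received 1 intraperitoneal injection of carbon tetrachloride (CCl4), a hepatocyte toxin, at 0.5 µL per g of body weight in mineral oil, and gave 3 libraries at 24 h, 4 at 72 h and 4 at 7 d. Chronic mice began at 8 to 10 weeks, received the same dose semi-weekly over 4 weeks, and were collected 24 h, 72 h or 14 d after that course (n = 4 each). No source used here says that animals were pooled, and the p-values measure only the spread between these libraries.

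The genes are best known from macrophages that take up and break down lipid in injured or fat-laden tissue. Gpnmb encodes a membrane glycoprotein of lysosomes and melanosomes. Trem2 encodes a lipid-sensing receptor that signals through the adaptor encoded by Tyrobp. Cd9 and Cd63 encode tetraspanins of the cell surface and of late endosomes. Fabp4 and Fabp5 encode cytosolic carriers of fatty acids, and Lpl encodes lipoprotein lipase, which frees fatty acids from triglyceride-rich particles. Spp1 encodes osteopontin, a secreted ligand of integrins and of CD44. Atp6v0d2 encodes a tissue-restricted subunit of the vacuolar proton pump that acidifies lysosomes. Cd9, Cd63, Spp1 and Lpl are also expressed by cells other than macrophages.

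Gpnmb (ENSMUSG00000029816) lies on chromosome 6 at 49036546 to 49070929 of GRCm38 and Trem2 (ENSMUSG00000023992) on chromosome 17 at 48346401 to 48354147, both on the plus strand. Spp1 (ENSMUSG00000029304) lies on chromosome 5 at 104435118 to 104441050, on the plus strand. The start regions of these 3 are shown because their levels ranged most widely among the members matched in the RefSeq table used here (GRCm38.p6). It matched 5 of the 9 members, with Cd9 and Cd63 besides these 3 and no entry for Fabp4, Fabp5, Lpl or Atp6v0d2, and the first of its starts is shown for Spp1. Each runs from 250 bases before the RefSeq start to 50 after it. Capitals mark a match to TGANTCA in Gpnmb and Trem2, a pattern looser than the AP-1 element TGACTCA. Gpnmb holds TGACTCA itself, and Trem2 holds TGAATCA, which differs from it in the middle base. In Spp1 capitals mark GAGGAAGT, a PU.1 element, and TATAAA, the TATA box motif.
Gpnmb, chr6:49036268-49036567, plus strand: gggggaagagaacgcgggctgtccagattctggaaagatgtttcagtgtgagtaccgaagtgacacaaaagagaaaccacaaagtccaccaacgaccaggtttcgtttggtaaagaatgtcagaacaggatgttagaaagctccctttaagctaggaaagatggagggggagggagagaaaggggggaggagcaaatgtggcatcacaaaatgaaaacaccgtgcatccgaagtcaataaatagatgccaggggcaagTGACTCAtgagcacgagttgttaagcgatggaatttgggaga
Trem2, chr17:48346151-48346450, plus strand: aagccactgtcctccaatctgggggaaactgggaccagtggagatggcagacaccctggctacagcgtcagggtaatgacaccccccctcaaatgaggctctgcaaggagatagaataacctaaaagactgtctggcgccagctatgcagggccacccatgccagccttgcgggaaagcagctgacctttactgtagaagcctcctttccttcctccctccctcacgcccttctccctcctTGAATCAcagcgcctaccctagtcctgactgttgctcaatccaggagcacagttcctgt
Spp1, chr5:104434861-104435160, plus strand: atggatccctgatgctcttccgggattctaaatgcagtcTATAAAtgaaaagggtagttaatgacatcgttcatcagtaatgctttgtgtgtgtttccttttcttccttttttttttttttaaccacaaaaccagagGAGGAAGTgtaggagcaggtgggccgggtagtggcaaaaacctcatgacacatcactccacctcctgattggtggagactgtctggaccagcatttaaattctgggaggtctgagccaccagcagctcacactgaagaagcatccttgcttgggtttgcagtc
The TGANTCA match began at base 9 of Gpnmb, counted from its start as base 1, and 9 bases before that of Trem2. In Spp1 the PU.1 match began 113 bases and the TATAAA match 211 bases before the start. Of 32851 start regions of the same length, 7.81% held TGANTCA, 3.2% GAGGAAGT and 13.62% TATAAA on either strand, and none of these motifs overlapped another. The E-box CACGTG (7.15% of start regions) and its variant CATGTG (14.15%) were also searched and had no match in these 3, and CATGTG matched once in Cd9. These matches describe the sequence and no binding was measured. Of the other members, Cd9 (ENSMUSG00000030342) lies on chromosome 6 at 125460266 to 125494791, Cd63 (ENSMUSG00000025351) on chromosome 10 at 128900989 to 128912822, Lpl (ENSMUSG00000015568) on chromosome 8 at 68880491 to 68907448 and Atp6v0d2 (ENSMUSG00000028238) on chromosome 4 at 19876841 to 19922605. Fabp4 (ENSMUSG00000062515) at 10204088 to 10208576 and Fabp5 (ENSMUSG00000027533) at 10012548 to 10016607 lie close together on chromosome 3.

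Total counts ranged from 6.31 to 13.1 M and formed 2 depth classes, 8 libraries up to 7.58 M (every chronic 14 d library, and replicates 1 and 2 of the earlier chronic groups) and 19 from 10.8 M. Levels are counts per 1 M counts (CPM), after TMM scaling of the library sizes. The summed level of 10 stellate cell genes was 20008 to 26531 CPM in healthy, 11196 to 15947 in acute 24 h, 8458 to 9259 in acute 7 d, 8062 to 8891 in chronic 24 h and 10469 to 14544 in chronic 14 d libraries. Lrat, which encodes the retinol-esterifying enzyme of HSCs, averaged 1792 ± 784 CPM (SD, n = 4) in healthy and 1086 ± 139.6 CPM in chronic 24 h libraries. Summed levels of 14 pan-macrophage genes were 132 to 454 CPM in healthy, 139 to 216 in acute 24 h, 317 to 601 in acute 72 h, 4229 to 10965 in acute 7 d, 629 to 4007 in chronic 24 h, 1002 to 2684 in chronic 72 h and 846 to 1889.5 in chronic 14 d libraries. Of these 14 genes only Ms4a7, in acute 24 h libraries, had no count in a whole group. Adgre1, which encodes the macrophage surface protein F4/80, averaged 2.01 ± 1.30 CPM in healthy and 35.0 ± 11.9 in acute 7 d libraries, and Csf1r, the receptor for macrophage growth factor, 42.6 ± 21.2 and 309 ± 180.2. Summed levels of 8 hepatocyte genes were 409 to 2540.1 CPM in healthy, 17.1 to 199 in acute 24 h and 713 to 1753 in acute 72 h libraries. Of these 8 genes 8 were called lower at acute 24 h than in healthy (all genes 12.5%) and 7 higher at acute 72 h than at 24 h (all genes 11.2%). The part of these other cells in the differences between groups was not tested. In bulk RNA a larger number of cells of one type and more RNA per cell cannot be told apart.

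Against healthy cells, 2 of the 9 members were called higher at acute 24 h, where 9.41% of all genes tested were called higher, 3 at acute 72 h (all genes 8.23%) and 7 at acute 7 d (9.23%). In the chronic groups 9 were called higher at 24 h (all genes 11.2%), 6 at 72 h (7.88%) and 6 at 14 d (4.55%). A call needs an adjusted p below 0.05 and a change over 2-fold. Since Gpnmb's rises against healthy chose the genes, these counts describe the choice and nothing is read from them. The comparisons between injured groups use the same injured libraries and are not independent of that choice. Gpnmb's own levels chose the set, so its calls between injured groups are descriptions without a p. Its acute 24 h level was near healthy, so those with acute 24 h come close to repeating the comparison with healthy. Cd9, Fabp5 and Spp1 were also not called at acute 24 h against healthy (edgeR), with overlapping libraries. Their p-values against acute 24 h are thus no support apart from the comparison with healthy. Counts of members called between injured groups are descriptions only. Between acute 24 h and acute 72 h, 3 of 9 members were called higher at 72 h (all genes 11.2%) and 1 lower (3.76%). From acute 72 h to acute 7 d, 7 of 9 were called higher, against 5.08% of all genes, and their median log2 fold change was 2.29 beside -0.04 over all genes tested. In chronic against acute 24 h, 6 of 9 members were called higher (all genes 10.9%). From chronic 24 h to chronic 72 h, 0 of 9 members were called lower with edgeR (all genes 3.65%), with 4 lower at an unadjusted p below 0.05 and 2 called with DESeq2. By 14 d, 6 of 9 were called lower than at chronic 24 h (all genes 6.11%), with a median log2 fold change of -1.57 beside 0.0061.

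**Figure D1:**
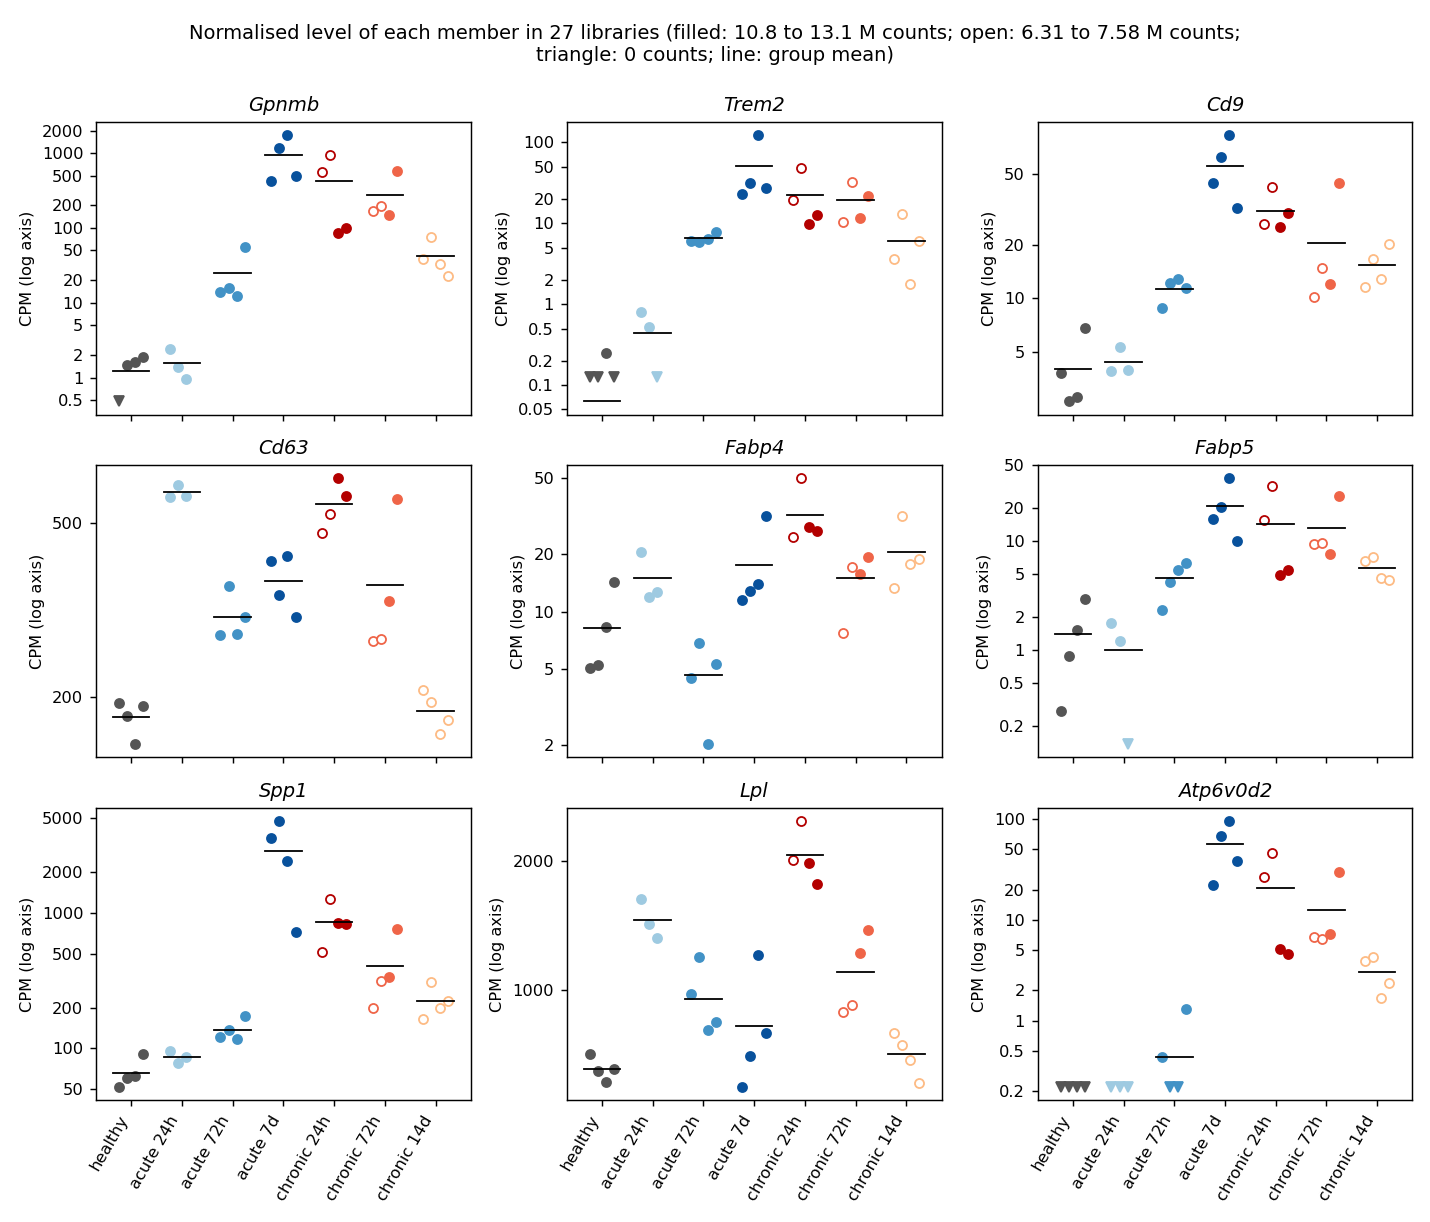
CPM of each member in every library on a log axis, by group. Filled points are libraries of higher depth, open points those of lower depth, triangles libraries with 0 counts, at an arbitrary height, and lines group means. The panels of Gpnmb, Trem2, Cd9, Fabp5, Spp1 and Atp6v0d2 have their highest group mean at acute 7 d, while Cd63 is highest at acute 24 h and Lpl and Fabp4 at chronic 24 h.

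Gpnmb was low in healthy and acute 24 h libraries and reached its highest level 7 d after a single injection. Healthy libraries held 0, 15, 19 and 22 counts, or 0, 1.46, 1.60 and 1.90 CPM. Acute 24 h libraries had 2.40, 1.39 and 0.965 CPM, and acute 72 h libraries 13.9, 15.9, 12.4 and 56.2 CPM. The ranges of healthy and acute 24 h libraries overlapped, and every acute 72 h library lay above both, with replicate 4 apart from the other 3. At acute 7 d the libraries had 422, 1159.9, 1726 and 493 CPM, every one above every acute 72 h library. Chronic 24 h libraries had 555, 932, 86.0 and 100.1 CPM, the 2 of lower depth above the 2 of higher depth. Chronic 72 h libraries had 169, 197, 148 and 571 CPM, with replicate 4 apart, and chronic 14 d libraries 37.9, 76.6, 32.8 and 22.9 CPM. Every chronic library was above every healthy and acute 24 h library. The fitted log2 fold changes against healthy, which chose the genes, were 0.34 ± 0.98 (± SE) at acute 24 h, 4.29 ± 0.89 at acute 72 h, 9.56 ± 1.07 at acute 7 d, 8.38 ± 1.03 at chronic 24 h, 7.75 ± 1.00 at chronic 72 h and 5.08 ± 0.91 at chronic 14 d.

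In order of mean CPM, Gpnmb was highest at acute 7 d (950.4 ± 615, SD, n = 4), followed by chronic 24 h (418 ± 406, n = 4), chronic 72 h (271 ± 201, n = 4), chronic 14 d (42.6 ± 23.5, n = 4), acute 72 h (24.6 ± 21.1, n = 4), acute 24 h (1.58 ± 0.738, n = 3) and healthy (1.24 ± 0.848, n = 4). Neighbours in this order overlapped, except chronic 72 h with chronic 14 d and acute 72 h with acute 24 h. Among the injured groups, the fitted log2 fold change of Gpnmb was 3.95 ± 0.98 from acute 24 h to 72 h (3.08 without replicate 4 of acute 72 h) and 8.03 ± 1.15 in chronic against acute 24 h (7.27 without replicate 2 of chronic 24 h). Gpnmb rose from acute 72 h to 7 d (5.27 ± 0.87), and by 6.09 without replicate 4 of acute 72 h. It fell from chronic 24 h to 14 d (-3.30 ± 0.79), with -2.54 without replicate 2 of chronic 24 h and a range of -3.74 to -2.54 over the 8 omissions of a library. The levels of Gpnmb chose the genes, so this rise and fall are descriptions only. The step from chronic 24 h to 72 h was -0.62 ± 0.72, adjusted p 0.635 (edgeR). Over the same 24 to 72 h interval the chronic change was lower than the acute one for Gpnmb (chronic minus acute -4.57 ± 1.20), Trem2 (-4.09 ± 1.10) and Cd9 (-1.96 ± 0.57, adjusted p 0.0283, edgeR). This contrast contains acute 24 h, so for Gpnmb it is not independent of the choice of genes and is a description only. Trem2 held few counts at acute 24 h, so its value in the contrast is a description too. With Gpnmb and Trem2 included, 3 of 9 members were called lower in this contrast, against 6.46% of all genes, and the count is a description only. Leaving out 1 library ended the call of Gpnmb once (replicate 2 of acute 24 h), that of Trem2 once (replicate 3 of acute 24 h) and that of Cd9 for 9 of 15 libraries. The values ranged from -5.24 to -3.68, -4.81 to -3.41 and -2.69 to -1.74 over these omissions. The lower end was without replicate 4 of chronic 72 h for Gpnmb and Cd9 and without replicate 1 of acute 24 h for Trem2. The upper end was without replicate 4 of acute 72 h for Gpnmb and replicate 2 of chronic 24 h for Trem2. All 3 calls were lost in the 19 higher-depth libraries alone, where Gpnmb gave -1.98 ± 1.21 (edgeR). Of the 14 pan-macrophage genes, 5 were called higher from acute 24 h to 72 h (all genes 11.2%), as were 3 of 6 monocyte genes (DESeq2 7 and 5). Another 13 of 14 calls were higher from acute 72 h to 7 d (5.08%) and 14 in chronic against acute 24 h (10.9%). By chronic 14 d 2 were called lower (6.11%). For the difference of the steps, 3 of 14 and 5 of 6 monocyte genes were called lower (6.46%), and with DESeq2 7 and 4. DESeq2 called 1 monocyte gene higher there. Summed monocyte levels averaged 253 and 262 CPM at acute 24 h and 72 h. They averaged 152 and 282 CPM at chronic 24 h and 72 h.

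**Figure D2:**
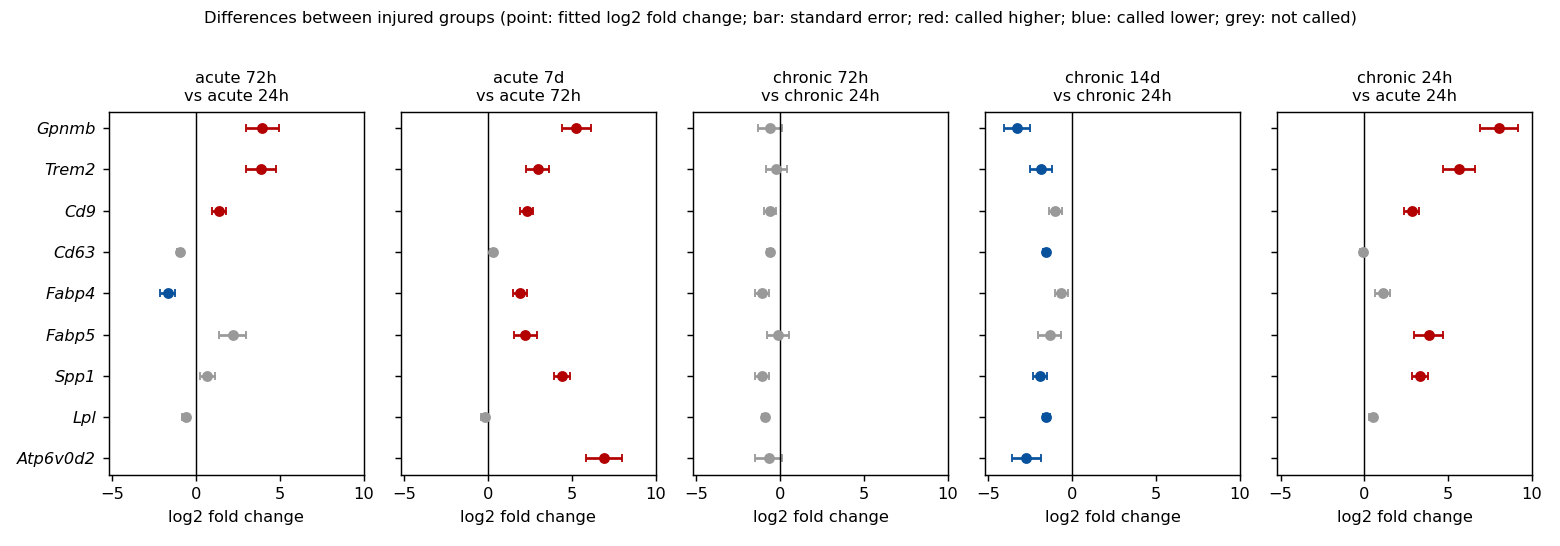
Fitted log2 fold change of each member in 5 comparisons between injured groups, with bars for the standard error. Red points were called higher, blue points lower and grey points neither, and Atp6v0d2 is left out where acute 24 h libraries all had 0 counts. The 7 red points of acute 7 d against acute 72 h stand beside Cd63 and Lpl near 0.

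Trem2, the lipid receptor, had 3 counts in all healthy libraries together, all in replicate 3. The acute 24 h libraries held 9, 6 and 0 counts. At acute 72 h the levels were 6.02, 5.88, 6.41 and 7.89 CPM and at acute 7 d 22.9, 31.1, 123 and 27.3 CPM, and these 2 groups did not overlap with each other or with the earlier ones. Replicate 3 of acute 7 d, which also had the highest pan-macrophage sum (4229, 6249, 10965 and 6793 CPM in replicates 1 to 4), had the highest Trem2 and Gpnmb. Chronic libraries had 19.3, 48.0, 9.90 and 12.8 CPM at 24 h, 10.4, 32.7, 11.7 and 22.0 at 72 h and 3.64, 12.9, 1.80 and 6.02 at 14 d, with overlap between each pair of these groups. The ratio of pooled counts to healthy was 813 (95% exact interval 278 to 3944) at acute 7 d, 297 (95% exact interval 101 to 1445) at chronic 24 h and 101 (95% exact interval 34.1 to 496) at chronic 14 d, and these intervals cover counting error only. Without replicate 3 of acute 7 d, replicate 2 of chronic 24 h or replicate 2 of chronic 14 d, these ratios were 441, 196 and 63.0. Without healthy replicate 3 the healthy libraries held 0 counts, and against a floor of 3 counts in each of them the groups were at least 194-fold, 82.6-fold and 24.6-fold higher. Among injured groups, Trem2 rose from acute 24 h to 72 h (3.86 ± 0.91) and was higher at chronic than at acute 24 h (5.63 ± 0.95). Its acute 24 h libraries held few counts and it passed the filter only through other groups, so these differences are descriptions only. Trem2 rose from acute 72 h to 7 d (2.96 ± 0.68, adjusted p 0.00549, edgeR) and fell from chronic 24 h to 14 d (-1.88 ± 0.66, adjusted p 0.0436, edgeR). That last call was lost when 1 of 5 libraries was left out in turn, replicates 1 and 2 of chronic 24 h and replicates 1, 3 and 4 of chronic 14 d, with log2 fold changes from -2.56 (without replicate 2 of chronic 14 d) to -1.20 (without replicate 2 of chronic 24 h) over all 8 omissions. It was also lost in a fit of only the 2 groups (-1.88 ± 0.67, adjusted p 0.0888, edgeR), with DESeq2 size factors, with library size alone and with no filter. Without replicate 3 of acute 7 d the rise from acute 72 h to 7 d was 2.05. Without replicate 1 of acute 24 h the differences from acute 24 h were 4.59 for acute 72 h and 6.36 for chronic 24 h. The latter was 4.95 without replicate 2 of chronic 24 h.

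Of 12 genes of the TREM family, its signalling partners and the proteases that shed TREM2, 10 were tested. Of these 10, 4 were called higher from acute 24 h to 72 h (all genes 11.2%), 3 from 72 h to 7 d (5.08%) and 8 in chronic against acute 24 h (10.9%), where their median log2 fold change was 3.25 (2.97 with genes at 0 set to their bound). The adaptor Tyrobp rose from 6.86 ± 1.71 CPM (SD, n = 4) at acute 72 h to 60.8 ± 27.5 at 7 d (3.15 ± 0.46, adjusted p 9.77e-05, edgeR) and was higher at chronic than at acute 24 h (3.37 ± 0.53, adjusted p 8.15e-05). The kinase gene Syk was called higher in the same comparisons (2.53 ± 0.41, adjusted p 2.69e-04 and 4.02 ± 0.51, adjusted p 6.09e-06, edgeR). Trem1, a receptor of neutrophils and monocytes, had no count in a healthy library and averaged 3.67 ± 1.66 CPM at acute 7 d and 7.49 ± 1.59 CPM at chronic 14 d. Of the proteases that shed TREM2, Adam10 rose from acute 24 h to 72 h (1.16 ± 0.34, adjusted p 0.0139, edgeR), and Adam17 averaged 44.0 ± 2.73 CPM in healthy and 76.3 ± 9.23 CPM in acute 7 d libraries.

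Cd9, a surface tetraspanin, followed the order of Gpnmb at a smaller range. Its libraries had 3.80, 2.63, 2.78 and 6.84 CPM in healthy, 3.91, 5.29 and 3.95 in acute 24 h, 8.85, 12.2, 12.7 and 11.4 in acute 72 h and 44.3, 62.5, 82.5 and 32.1 in acute 7 d mice. The 2 later acute groups overlapped neither with each other nor with the earlier ones. Chronic libraries had 26.1, 42.2, 25.2 and 30.2 CPM at 24 h, 10.1, 14.8, 12.0 and 44.2 at 72 h and 11.6, 16.7, 12.9 and 20.2 at 14 d. Replicate 4 of chronic 72 h stood apart from the other 3, as it did for Gpnmb, Fabp5 and Atp6v0d2. In the fit, Cd9 differed from healthy by a log2 fold change of 0.13 ± 0.43 at acute 24 h, 1.49 ± 0.40 at acute 72 h, 3.78 ± 0.42 at acute 7 d, 2.94 ± 0.41 at chronic 24 h, 2.34 ± 0.40 at chronic 72 h and 1.93 ± 0.40 at chronic 14 d. Cd9 rose from acute 24 h to 72 h (1.37 ± 0.44, adjusted p 0.0248, edgeR), a call lost when any of 4 libraries was left out (replicates 1 and 3 of acute 24 h, and 3 and 4 of acute 72 h), and from 72 h to 7 d (2.29 ± 0.39, adjusted p 4.77e-04, edgeR). It was higher at chronic than at acute 24 h (2.81 ± 0.46, adjusted p 1.07e-04, edgeR). Its fall by chronic 14 d did not pass the test (-1.01 ± 0.38, adjusted p 0.0592, edgeR), although the 2 groups did not overlap, and was called in a fit of only the 2 groups (-1.01 ± 0.24, adjusted p 0.0230, edgeR). Gm28809 and Gm26728 lie over Cd9 on the opposite strand with 88 and 475 counts in all libraries against 6141 of Cd9, and whether the counting used strand is not stated in the sources used here.

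Cd63, the tetraspanin of late endosomes, had another course. Its level was 193, 180.3, 156 and 191 CPM in healthy and 574, 612 and 575 CPM already at acute 24 h. It was lower at acute 72 h, with 277, 358, 278 and 305 CPM, and 409, 341, 419.8 and 304 CPM at acute 7 d, groups that overlapped with each other and lay between healthy and acute 24 h. Chronic 24 h libraries, with 474, 525, 633 and 577 CPM, overlapped with acute 24 h, and chronic 14 d libraries, with 207, 195, 164 and 177 CPM, overlapped with healthy. Relative to healthy, Cd63 had a log2 fold change of 1.71 ± 0.20 at acute 24 h, 0.76 ± 0.18 at acute 72 h, 1.03 ± 0.19 at acute 7 d, 1.62 ± 0.19 at chronic 24 h, 1.00 ± 0.19 at chronic 72 h and 0.05 ± 0.18 at chronic 14 d. The difference between chronic and acute 24 h was -0.09 ± 0.20, adjusted p 0.798 (edgeR), and its 24 to 72 h steps differed by 0.33 ± 0.27, adjusted p 0.501. The fall from chronic 24 h to 14 d passed the test (-1.57 ± 0.19, adjusted p 2.76e-06, edgeR). The falls from 24 h to 72 h passed the p threshold and not the 2-fold minimum (acute -0.95 ± 0.20, adjusted p 0.00105, chronic -0.62 ± 0.18, adjusted p 0.0237, edgeR). Cd63 shares 98.0% of bases over 858 with the pseudogene Cd63-ps, which held 21938 counts against 103652 of Cd63, so reads may have been split between them. Summed over both, the levels were 218 ± 20.9 CPM in healthy, 708 ± 30.2 in acute 24 h, 448 ± 67.6 in acute 7 d, 668 ± 87.1 in chronic 24 h and 226 ± 23.0 in chronic 14 d libraries, the same order as for Cd63 alone.

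Of 18 other tetraspanins tested, 5 were called higher (all genes 5.08%) and 1 lower (2.73%) from acute 72 h to 7 d, with a median log2 fold change of 0.15 beside -0.04 over all genes. The leukocyte tetraspanins Cd37 and Cd53 were among those called higher (2.50 ± 0.41, adjusted p 2.99e-04 and 2.65 ± 0.41, adjusted p 1.65e-04, edgeR), and Cd151 was the one called lower (-2.20 ± 0.61, adjusted p 0.0198). Cd81, the most abundant of the list, averaged 428 ± 196 CPM at acute 72 h and 428 ± 172 CPM at 7 d. Tspan4 had its highest mean at acute 24 h (899.8 ± 146 CPM against 193 ± 26.2 in healthy), as Cd63 did, and was lower at chronic than at acute 24 h (-1.24 ± 0.41, adjusted p 0.0319, edgeR).

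Fabp5, the fatty acid carrier, held 0.272, 0.877, 1.51 and 2.94 CPM in healthy and 1.78, 1.21 and 0 CPM in acute 24 h libraries. Acute 72 h libraries had 2.30, 4.24, 5.44 and 6.27 CPM and acute 7 d libraries 15.9, 20.4, 37.8 and 10.1 CPM, with no overlap between them. Chronic libraries had 15.6, 31.9, 4.91 and 5.43 CPM at 24 h, 9.32, 9.56, 7.62 and 26.0 at 72 h and 6.61, 7.10, 4.57 and 4.40 at 14 d. Within chronic 24 h the 2 libraries of lower depth lay above the 2 of higher depth. The fitted log2 fold change of Fabp5 against healthy was -0.50 ± 0.83 at acute 24 h, 1.69 ± 0.72 at acute 72 h, 3.89 ± 0.75 at acute 7 d, 3.34 ± 0.74 at chronic 24 h, 3.21 ± 0.74 at chronic 72 h and 1.999 ± 0.73 at chronic 14 d. Fabp5 rose from acute 72 h to 7 d (2.20 ± 0.69, adjusted p 0.0367, edgeR), a call lost in 6 of 8 omissions of a library (any of acute 72 h, and replicates 2 and 3 of acute 7 d). It was higher at chronic than at acute 24 h (3.83 ± 0.86, adjusted p 0.00261, edgeR). That call was lost in the higher-depth libraries alone (2.36 ± 0.92, adjusted p 0.0979, edgeR) and in a fit of only the 2 groups (3.85 ± 1.12, adjusted p 0.0558, edgeR). The value was 4.53 without replicate 1 of acute 24 h and 3.08 without replicate 2 of chronic 24 h. Its gene shares 98.3% of bases over 409 with Gm6166 and 97.3% over 408 with Gm14328, which held 2292 and 290 counts against 2568 of Fabp5, so its own level is uncertain. Summed over the 3 genes the levels were 2.60 ± 1.56 CPM in healthy, 1.73 ± 1.47 in acute 24 h, 8.62 ± 3.49 in acute 72 h, 43.3 ± 18.7 in acute 7 d, 29.0 ± 23.3 in chronic 24 h, 25.7 ± 17.5 in chronic 72 h and 11.1 ± 2.02 in chronic 14 d libraries. Gm6166 by itself was called in the same direction as Fabp5 in both comparisons (2.42 ± 0.56, adjusted p 0.00569 and 4.44 ± 0.73, adjusted p 1.21e-04, edgeR).

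Fabp4, the carrier best known from fat cells and endothelium, stayed below 50 CPM in every library. It had 5.07, 5.26, 8.33 and 14.3 CPM in healthy, 20.6, 12.0 and 12.6 in acute 24 h, 4.51, 6.83, 2.03 and 5.34 in acute 72 h and 11.5, 12.9, 14.0 and 31.8 in acute 7 d libraries. The lowest group was acute 72 h, which did not overlap with acute 24 h or acute 7 d. Chronic libraries had 24.7, 49.9, 27.6 and 26.4 CPM at 24 h, 7.72, 17.1, 15.7 and 19.3 at 72 h and 13.4, 31.7, 17.8 and 18.9 at 14 d. Every injured group but acute 72 h had a higher mean than healthy, with log2 fold changes of 0.87 ± 0.44 at acute 24 h, -0.82 ± 0.42 at acute 72 h, 1.09 ± 0.41 at acute 7 d, 1.96 ± 0.42 at chronic 24 h, 0.86 ± 0.41 at chronic 72 h and 1.31 ± 0.41 at chronic 14 d. Fabp4 fell from acute 24 h to 72 h (-1.69 ± 0.44, adjusted p 0.00687, edgeR), a call lost without replicate 1 of acute 24 h, and rose to 7 d (1.90 ± 0.42, adjusted p 0.00416, edgeR). The chronic falls did not pass the test (-1.10 ± 0.41, adjusted p 0.0700 to 72 h and -0.65 ± 0.40, adjusted p 0.267 to 14 d, edgeR), and the first was called by DESeq2 (-1.08 ± 0.41, adjusted p 0.0471). The summed level of 10 liver sinusoidal endothelial cell genes was also higher at acute 7 d than at acute 72 h, with 8 of 10 called higher (all genes 5.08%). It was 173 to 527 CPM in healthy, 93.6 to 120 in acute 24 h, 64.9 to 162 in acute 72 h and 244 to 665 in acute 7 d libraries. Chronic libraries had sums of 85.0 to 232 CPM at 24 h, where Fabp4 was highest, 203 to 315 at 72 h and 461 to 656 at 14 d. The part of these cells in the Fabp4 result was not tested. The 5 adipocyte genes summed to at most 7.45 CPM in any library, with Retn at 0 in all of them. Of 8 other fatty acid-binding proteins 3 were tested. Fabp7 averaged 0.189 ± 0.379 CPM in healthy and 8.85 ± 8.56 CPM in chronic 24 h libraries and fell by chronic 14 d (-2.24 ± 0.79, adjusted p 0.0428, edgeR), and Fabp1, the liver form, had 0 counts in all acute 24 h libraries and 0 to 361 CPM in chronic 14 d libraries. The hepatocyte sums of these groups were 17.1 to 199 and 1215 to 5619 CPM.

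Spp1, the osteopontin gene, reached its highest level at acute 7 d. Healthy libraries had 51.7, 60.4, 62.2 and 90.2 CPM, acute 24 h libraries 95.4, 77.3 and 86.3 and acute 72 h libraries 121, 136, 117 and 173. At acute 7 d the values were 3602, 4769, 2422 and 717 CPM, all above every acute 72 h library, and replicate 4 was the lowest of them. Chronic libraries had 512, 1262, 837 and 831 CPM at 24 h, 199, 313, 335.6 and 763 at 72 h and 165, 308, 199 and 224 at 14 d, all above every healthy library. In contrast to Gpnmb, the lower-depth libraries of chronic 24 h were the lowest and the highest of their group. The log2 fold change of Spp1 against healthy was 0.38 ± 0.44 at acute 24 h, 1.05 ± 0.41 at acute 72 h, 5.44 ± 0.49 at acute 7 d, 3.70 ± 0.45 at chronic 24 h, 2.61 ± 0.43 at chronic 72 h and 1.76 ± 0.42 at chronic 14 d. Spp1 rose from acute 72 h to 7 d (4.40 ± 0.47, adjusted p 3.60e-06, edgeR), was higher at chronic than at acute 24 h (3.32 ± 0.50, adjusted p 4.84e-05) and fell by chronic 14 d (-1.94 ± 0.42, adjusted p 0.00174). Its change from acute 24 h to 72 h was 0.66 ± 0.45, adjusted p 0.317 and that from chronic 24 h to 72 h -1.10 ± 0.41, adjusted p 0.0741 (edgeR). The latter was called by DESeq2 (-1.08 ± 0.40, adjusted p 0.0410) and, with edgeR, without replicate 1 of chronic 24 h (-1.28 ± 0.43, adjusted p 0.0423) or replicate 4 of chronic 72 h (-1.61 ± 0.41, adjusted p 0.0112). The cholangiocyte genes, of cells that also make osteopontin, summed to 6.31 to 17.1 CPM at acute 72 h and 15.3 to 45.0 CPM at 7 d, and 1 of the 6 tested was called higher with edgeR (all genes 5.08%). At an unadjusted p below 0.05 (edgeR) 3 of the 6 were higher and 0 lower, and DESeq2 called 2 higher. Gm42793 lies over Spp1 on the same strand with 1879 counts against 211909 of Spp1.

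Of 9 osteopontin receptor genes 8 were tested. Cd44 averaged 16.6 ± 2.58 CPM in healthy and 164 ± 36.9 CPM in chronic 24 h libraries, was higher at chronic than at acute 24 h (1.47 ± 0.22, adjusted p 4.52e-05, edgeR) and fell by chronic 14 d (-1.59 ± 0.20, adjusted p 5.42e-06). The integrin subunit Itga5 was at 45.8 ± 3.66 CPM in healthy, 452 ± 277 in acute 24 h and 371 ± 56.6 in chronic 24 h libraries. It fell from acute 24 h to 72 h (-2.45 ± 0.31, adjusted p 4.33e-06, edgeR) and from chronic 24 h to 14 d (-3.13 ± 0.30, adjusted p 2.20e-07). From chronic 24 h to 72 h, 6 of the 8 receptor genes were called lower (all genes 3.65%), with a median log2 fold change of -1.22 beside 0 over all genes. From acute 72 h to 7 d, 0 of the 8 were called in either direction with edgeR, where 2 were higher and 1 lower at an unadjusted p below 0.05 and DESeq2 called 1 higher and 0 lower, and Itgb1 gave -0.62 ± 0.26, adjusted p 0.118 (edgeR).

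Lpl, lipoprotein lipase, was abundant before injury, at 710.3, 645, 609 and 655 CPM in healthy libraries. It had 1632, 1428 and 1323 CPM at acute 24 h, 978, 1198, 807 and 839.7 at acute 72 h and 593, 702, 1206 and 792 at acute 7 d. Acute 24 h lay above healthy and acute 72 h without overlap, and acute 7 d overlapped with healthy. Chronic libraries had 2017, 2487, 1987 and 1774 CPM at 24 h, 889, 923, 1219.8 and 1379.6 at 72 h and 792, 746, 685 and 606 at 14 d, the last again overlapping with healthy. Its log2 fold change against healthy was 1.16 ± 0.20 at acute 24 h, 0.55 ± 0.19 at acute 72 h, 0.33 ± 0.19 at acute 7 d, 1.66 ± 0.19 at chronic 24 h, 0.75 ± 0.19 at chronic 72 h and 0.11 ± 0.19 at chronic 14 d. Lpl fell from chronic 24 h to 14 d (-1.55 ± 0.19, adjusted p 5.09e-06, edgeR). The falls from 24 h to 72 h passed the p threshold and not the 2-fold minimum (acute -0.61 ± 0.20, adjusted p 0.0311, chronic -0.91 ± 0.19, adjusted p 0.00208, edgeR). Chronic 24 h libraries did not overlap with acute 24 h, and that difference did not pass the test (0.50 ± 0.21, adjusted p 0.0884, edgeR). All 14 partners, regulators and relatives of Lpl were tested. Angptl4, a secreted inhibitor of the enzyme, averaged 36.3 ± 18.0 CPM in healthy and 1442 ± 429 CPM in acute 24 h libraries, fell to 72 h (-2.43 ± 0.42, adjusted p 1.70e-04, edgeR) and was lower at chronic than at acute 24 h (-1.88 ± 0.41, adjusted p 0.00202). It fell from chronic 24 h to 14 d (-2.69 ± 0.41, adjusted p 4.68e-05, edgeR), while Angptl8, Apoa5 and Lipc, which hepatocytes express, were called higher. Of 8 hepatocyte genes 4 were called higher over that interval (all genes 6.65%), with summed levels of 413 to 1864 CPM at chronic 24 h and 1215 to 5619 CPM at 14 d, and their part in these calls was not tested. Lrp1, the most abundant of the list, averaged 902 ± 367 CPM at chronic 24 h and 708 ± 121 CPM at 14 d.

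Atp6v0d2, the pump subunit, had 0 counts in all healthy and acute 24 h libraries. Acute 72 h libraries held 5, 0, 0 and 17 counts, or up to 1.31 CPM. At acute 7 d they had 22.1, 68.3, 95.4 and 38.4 CPM, with no overlap with any earlier group. Against a floor of 3 counts in each healthy library, acute 7 d was at least 221-fold higher, chronic 24 h at least 78.0-fold, chronic 72 h at least 49.8-fold and chronic 14 d at least 12.8-fold. Without replicate 2 of chronic 24 h that group was at least 45.7-fold higher. Without replicate 4 of chronic 72 h that group was at least 28.1-fold higher. Chronic libraries had 26.8, 46.5, 5.17 and 4.55 CPM at 24 h, 6.79, 6.42, 7.31 and 29.9 at 72 h and 3.91, 4.34, 1.68 and 2.35 at 14 d. The lower-depth libraries of chronic 24 h were again the high ones, and replicate 4 of chronic 72 h stood apart. Atp6v0d2 rose from acute 72 h to 7 d (6.92 ± 1.08), by 8.51 without replicate 4 of acute 72 h. The size of this rise rests on the few acute 72 h counts. Since Atp6v0d2 passed the filter only through groups where it was high, the direction was set in advance and no p is given. Atp6v0d2 fell from chronic 24 h to 14 d (-2.74 ± 0.88, adjusted p 0.0307, edgeR, and -1.96 without replicate 2 of chronic 24 h), a call lost in 6 of 8 omissions of a library (replicates 1 and 2 of chronic 24 h and each of chronic 14 d) and held in the lower-depth libraries alone (-3.52 ± 0.36, adjusted p 0.00220, edgeR).

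Of 24 other vacuolar ATPase subunit and accessory genes 19 were tested. From acute 72 h to 7 d 0 of them were called in either direction with edgeR, where 6 were higher and 0 lower at an unadjusted p below 0.05 and DESeq2 called 1 higher and 0 lower, at a median log2 fold change of 0.30 beside -0.04 over all genes. From chronic 24 h to 14 d 0 were called with edgeR, where 0 were higher and 6 lower at an unadjusted p below 0.05 and DESeq2 called 0 higher and 0 lower (median -0.34 beside 0.0061). The 3 most abundant, Atp6ap1, Atp6v0e and Atp6v1g1, averaged 112 ± 10.6, 113 ± 27.8 and 98.5 ± 13.6 CPM at acute 72 h and 121 ± 17.6, 127 ± 20.7 and 115 ± 15.8 CPM at 7 d. Whether Atp6v0d2 differed from these genes in its change was not tested. Of 21 lysosomal genes and MiT/TFE transcription factors, which switch lysosomal genes on, 3 were called higher from acute 72 h to 7 d (all genes 5.08%), with a median of 0.51, Ctns and Neu1 among them (1.22 ± 0.16, adjusted p 3.76e-05 and 1.23 ± 0.22, adjusted p 6.82e-04, edgeR). At an unadjusted p below 0.05 (edgeR) 13 of the 21 were higher and 1 lower, and DESeq2 called 3 higher and 0 lower. Psap, the most abundant, averaged 933 ± 56.3 CPM at acute 72 h and 1758 ± 261 CPM at 7 d, and its change passed the p threshold but not the 2-fold minimum (0.91 ± 0.22, adjusted p 0.00870, edgeR). Mitf averaged 2.64 ± 1.21 CPM in healthy and 8.43 ± 4.03 CPM in acute 7 d libraries.

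Genes named from this and the preceding lists for a call between injured groups were picked after their values were seen. Among 15 other genes known from lipid-associated macrophages, all tested, 9 were called higher (all genes 5.08%) and 1 lower (2.73%) from acute 72 h to 7 d, with a median log2 fold change of 1.47 beside -0.04 over all genes. The lysosomal proteases Ctsb and Ctsd rose (1.47 ± 0.22, adjusted p 1.47e-04 and 2.08 ± 0.36, adjusted p 4.46e-04, edgeR), as did the lipid carrier Apoe (2.18 ± 0.33, adjusted p 1.41e-04) and the galectin Lgals3 (2.01 ± 0.65, adjusted p 0.0436), while Lgals1 fell (-1.35 ± 0.38, adjusted p 0.0216). Itgax, the CD11c integrin, had 0 counts in all healthy, acute 24 h and acute 72 h libraries and averaged 7.17 ± 3.54 CPM at acute 7 d. From chronic 24 h to 14 d, 7 of the 15 were called lower (all genes 6.11%), at a median of -0.82, with Lgals1 (-3.15 ± 0.41, adjusted p 7.36e-06), Lgals3 (-2.08 ± 0.65, adjusted p 0.0237) and Mmp12 (-3.00 ± 0.68, adjusted p 0.00268, edgeR) among them. Apoe, which HSCs also express, averaged 7839 ± 3503 CPM at chronic 24 h and 9838 ± 4959.9 CPM at 14 d. In chronic against acute 24 h, 6 were called higher (all genes 10.9%) and 1 lower (3.05%), the lipid-droplet coat gene Plin2 (-1.33 ± 0.28, adjusted p 0.00147, edgeR).

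**Figure D3:**
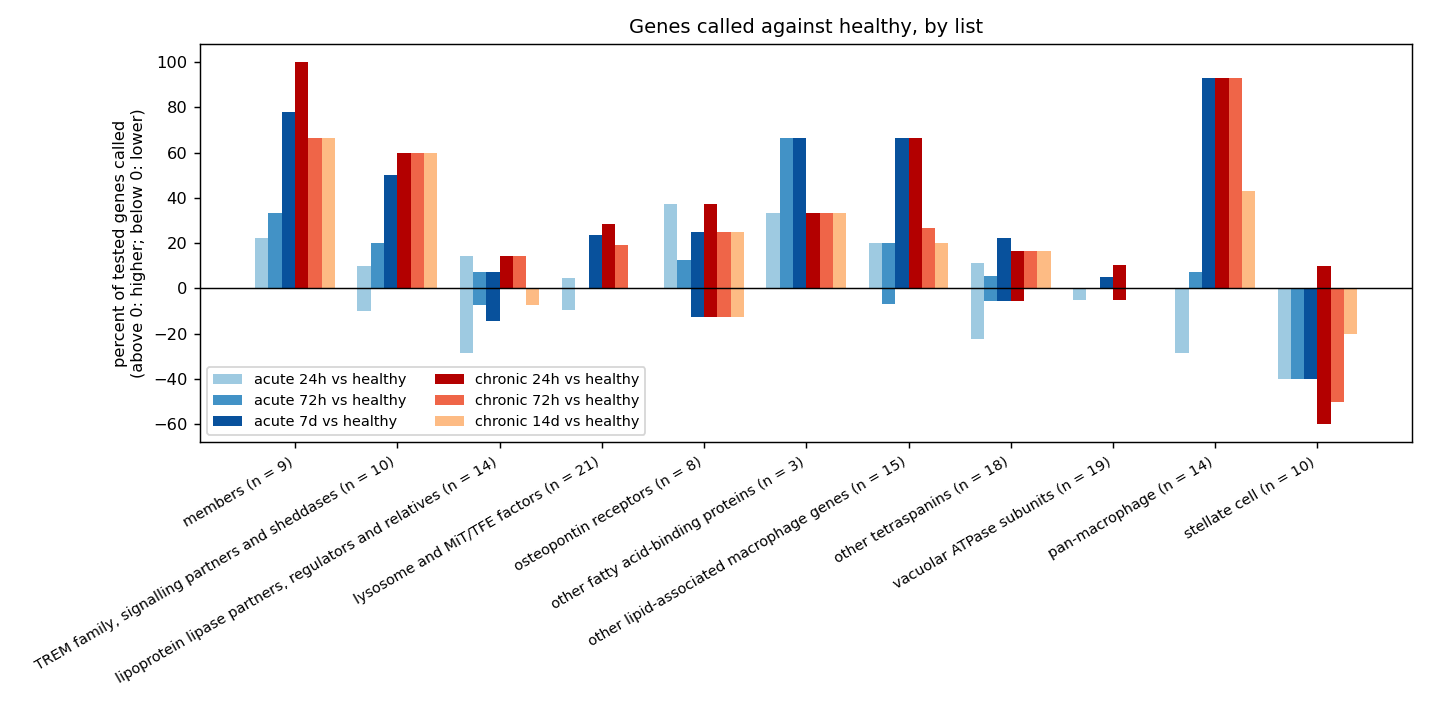
Share of the tested genes of each list that were called higher (bars above 0) or lower (bars below 0) than healthy, for the 6 injured groups. The vacuolar ATPase subunits have at most 2 genes called higher in any group, the pan-macrophage genes 13 of 14 in acute 7 d, chronic 24 h and chronic 72 h, and the stellate cell genes mostly lower calls.

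Per exon length, in length-scaled units that sum to 1 M in each library (TPM) computed from the counts and GENCODE M21 exon lengths, the members differed widely in level. In healthy libraries the mean was 157 TPM for Lpl, 123 for Cd63 and 101 for Spp1, and under 5 TPM for each of the other 6. At acute 7 d it was 4661 TPM for Spp1, 379 for Gpnmb, 265 for Cd63 and 206 for Lpl, then 71.0 for Cd9, 53.6 for Atp6v0d2, 26.4 for Trem2, 15.4 for Fabp5 and 10.3 for Fabp4. At chronic 24 h Spp1 (1338 TPM) and Lpl (503) led, with Gpnmb at 161.

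Depth class and the level of Gpnmb moved together within chronic 24 h. The 2 libraries of lower depth had 555 and 932 CPM, and the 2 of higher depth 86.0 and 100.1 CPM. Their pan-macrophage sums, in the same order, were 2959, 4007, 629 and 1267 CPM. In chronic 72 h the highest Gpnmb was in a library of higher depth, replicate 4, and the highest pan-macrophage sum in replicate 2 (2034, 2684, 1002 and 2271 CPM in replicates 1 to 4). In acute 72 h the highest Gpnmb was in replicate 4 and the highest sum in replicate 1 (601, 511, 317 and 567 CPM in replicates 1 to 4). All acute 72 h libraries were of higher depth. With 2 libraries of each class in chronic 24 h and in chronic 72 h, depth class and differences between mice cannot be told apart there. In higher-depth libraries alone, chronic 24 h exceeded acute 24 h by 5.87 ± 0.97 for Gpnmb, 4.66 ± 0.87 for Trem2, 2.66 ± 0.48, adjusted p 0.00171 for Cd9 and 3.27 ± 0.52, adjusted p 6.82e-04 for Spp1 (edgeR). In lower-depth libraries alone, the fall from chronic 24 h to 14 d was -4.08 ± 0.43 for Gpnmb, -1.93 ± 0.38, adjusted p 0.0190 for Spp1, -1.37 ± 0.15, adjusted p 0.00273 for Cd63 and -1.61 ± 0.17, adjusted p 0.00229 for Lpl, and that of Trem2 was -2.42 ± 0.73, adjusted p 0.0811 (edgeR). The step from chronic 24 h to 72 h was, for Gpnmb, 1.96 ± 0.93, adjusted p 0.220 in the higher and -1.99 ± 0.51, adjusted p 0.108 in the lower class, and for Atp6v0d2 1.95 ± 1.08, adjusted p 0.320 and -2.43 ± 0.44, adjusted p 0.0447 (edgeR).

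Within groups, members were related to the summed markers of 5 other cell types by the deviation of each library from its group mean, in log2 CPM. Each of the 45 relations was tested by a two-sided permutation test over the 27 libraries with 100000 permutations within groups. With the pan-macrophage sum, the relation of Trem2 passed the test (r 0.64, p 6.80e-04, adjusted p 0.0306, and rho 0.66, p 6.70e-04, adjusted p 0.0259, permutation). That of Gpnmb passed by rank and not by r (r 0.68, p 0.00628, adjusted p 0.0728, and rho 0.73, p 0.00115, adjusted p 0.0259, permutation). Without the 2 libraries farthest from the median of the marker sum, replicates 2 and 3 of chronic 24 h, r was 0.57 for Trem2 (p 0.00464, adjusted p 0.209, permutation) and 0.57 for Gpnmb (p 0.0270, adjusted p 0.304, permutation). Neither r passed the test over these fewer libraries and narrower range of the sum, and rho was 0.59 and 0.66. In the 19 higher-depth libraries alone r was 0.58 (adjusted p 0.213, permutation) and 0.52 (adjusted p 0.343, permutation). For Atp6v0d2 and Fabp5 r was 0.63 and 0.62 (both adjusted p 0.0728, permutation), while for Spp1 it was 0.10 and for Cd63 -0.11 (adjusted p 0.788 and 0.781). No member's relation to the Kupffer cell, liver sinusoidal endothelial cell, hepatocyte or cholangiocyte sum passed the test, and the smallest adjusted p for r was 0.143 (Cd63 with the endothelial sum, permutation).

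**Figure D4:**
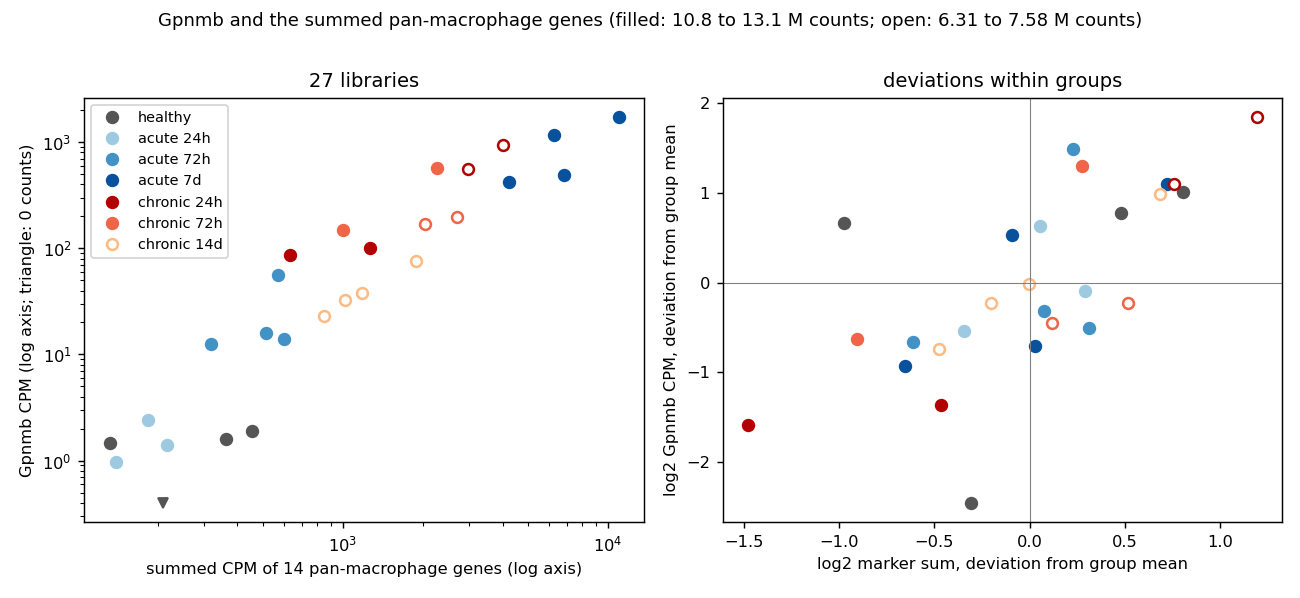
Left, Gpnmb against the summed CPM of 14 pan-macrophage genes in 27 libraries, both on log axes, coloured by group, with open points for libraries of lower depth. Right, deviations of the same libraries from their group means on the log2 scale, where r is 0.68. Healthy and acute 24 h libraries lie at the lower left and acute 7 d libraries at the upper right.

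Of 13940 other genes whose log2 CPM averaged 1 or more, the 10 whose log2 CPM was most correlated with that of Gpnmb over the 27 libraries included Atp6v0d2 (r 0.948) and Trem2 (0.947) among the members. The other 8 were Gm6166 (0.955), the near-identical copy of Fabp5, Gm36161 (0.955), Tpd52 (0.953), the lysozyme gene Lyz2 (0.950), the protease gene Ctss (0.949), Cd84 (0.943), the complement receptor gene C3ar1 (0.941) and the perforin-like gene Mpeg1 (0.938). Lyz2 is itself one of the 14 pan-macrophage genes. Within groups, by deviations from the group mean, r with Gpnmb ranged from 0.56 for Mpeg1 to 0.80 for Gm6166 over these 10. Fabp5 ranked 14 (r 0.931), Cd9 42 (0.914) and Spp1 93 (0.885), whereas Fabp4 ranked 1864 (0.479), Cd63 3174 (0.311) and Lpl 3714 (0.259). Cd63 and Lpl were closer to each other (r 0.84 over the libraries and 0.50 within groups) than either was to Gpnmb. These correlations describe libraries that share groups and depth classes and were not tested.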

How the data were processed

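The counts were the authors' own: per the labels and the study's methods, single-end reads were aligned to GRCm38 with STAR and assembled with StringTie, and the deposited table holds raw counts per gene in 27 libraries, with no normalisation (tool versions are not given in the sources used here). Whether the counting used strand is not given there either. Groups were taken from the sample labels. Of 53379 genes, 53274 matched GENCODE M21, which gave symbols, positions and exon lengths. The 18758 genes kept by filterByExpr were fitted once over all 27 libraries with edgeR 4.0.16 (quasi-likelihood, robust, TMM) in R 4.3.3, and p-values were adjusted by Benjamini-Hochberg over all of them. A gene was called at an adjusted p below 0.05 and a change over 2-fold. Log2 CPM used a prior count of 2. Counts against a group at 0 used a floor of 3 counts per library, and the intervals are exact at 95% and cover counting error only. Copies were searched with BLAST 2.17.0 over transcripts (at least 95% of bases over at least 200).

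Total counts were 6.31 to 13.1 M per library, and the 39 replicate pairs differed by 17.0 to 90.1 times counting error, so no library was counted as a copy of another. The members and lists were chosen with earlier results of these data known. Named genes were the 9 members, the 3 of each role list with the highest mean CPM, the largest change called in each list at chronic 24 h and acute 24 h against healthy, the 10 genes most like Gpnmb, and of each marker list the first 2 genes and any at 0. Other list genes were named after their values were seen, and some list genes are not reported here by name. Alternatives were DESeq2 1.42.0, its size factors, library size alone, no filter, no fold minimum, a fit of only the 2 groups, the replicate number as a block, depth class as a term and leaving out each library. The fits within a depth class, and the further alternatives for the difference of the steps, were chosen after seeing the data.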

Additional observations from a re-analysis of the deposited data

Results flagged for a closer look

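In groups of 4 libraries, the highest or lowest value of a member was set against the nearest of the others by Dixon's ratio. Of 54 sets of a member and a group, 9 had a library apart at the 95% level, where chance alone gives about 1 in 20 for independent and normally spread values. These sets are neither, since members share libraries and their CPM are skewed, and the healthy set of Atp6v0d2 was 0 throughout. Replicate 4 of chronic 72 h stood apart for 4 members, with 571 CPM of Gpnmb (next 197), 44.2 CPM of Cd9 (next 14.8), 26.0 CPM of Fabp5 (next 9.56) and 29.9 CPM of Atp6v0d2 (next 7.31). Replicate 4 of acute 72 h had 56.2 CPM of Gpnmb (next 15.9). Replicate 3 of acute 7 d had 123 CPM of Trem2 (next 31.1). For Fabp4, replicate 4 of acute 7 d had 31.8 CPM (next 14.0) and replicate 2 of chronic 24 h 49.9 CPM (next 27.6). Trem2 in healthy replicate 3 was 0.252 CPM, from 3 counts, with 0 in the other healthy libraries.

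The change from 24 h to 72 h differed between chronic and acute injury for Trem2 (-4.09 ± 1.10, adjusted p 0.0177) and Cd9 (-1.96 ± 0.57, adjusted p 0.0283), as log2 fold changes ± SE, chronic minus acute (edgeR). For Gpnmb it was -4.57 ± 1.20, a description only because the contrast contains acute 24 h. For Trem2 it was -4.09 ± 1.10, a description only because acute 24 h libraries held few counts of it. In the higher-depth libraries alone the differences were -1.98 ± 1.21 for Gpnmb, -3.28 ± 1.13, adjusted p 0.100 for Trem2 and -1.33 ± 0.66, adjusted p 0.264 for Cd9 (edgeR).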

How the results depend on the processing

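Counts of members called moved by over 1.5 times as follows. For chronic 14 d above healthy it was 3 with depth class as a term, which ended the calls of Gpnmb (4.07 ± 1.23), Fabp4 and Atp6v0d2, for acute 72 h above healthy 5 with no fold minimum, and for acute 72 h above acute 24 h 5 with DESeq2. Counts above healthy remain a description only. For acute 72 h below acute 24 h it was 2 with no filter or a fit of only the 2 groups, 3 with no fold minimum, and 0 to 2 on leaving out a library (0 without acute 24 h replicate 1, 2 without acute 72 h replicate 2 or 4). For chronic 72 h below chronic 24 h it was 2 with DESeq2, with no fold minimum or in the lower-depth libraries alone, 1 with the replicate block, and 0 to 3 on leaving out a library (1 without chronic 24 h replicate 1, 3 without chronic 72 h replicate 4). For the difference of the steps it was 5 with DESeq2, 0 with no filter or in the higher-depth libraries alone, and 1 to 4 on leaving out a library (1 without acute 24 h replicate 3). Smaller moves were 1 member more with DESeq2 at acute 24 h, 72 h and 7 d and chronic 14 d above healthy, and 2 more (Cd63 and Lpl) with no fold minimum at chronic 72 h above healthy. Relations to marker sums past the threshold were 0 without the 2 farthest libraries and 0 in the higher-depth libraries. The cause of these changes was not tested. Signs turned in 24 of 1847 values, none past the threshold either way. In higher-depth libraries the chronic 72 h against 24 h change was 1.96 for Gpnmb, 0.58 for Trem2, 0.034 for Cd9, 1.71 for Fabp5 (0.18 with depth class as a term) and 1.95 for Atp6v0d2. Cd63 in chronic against acute 24 h was 0.045 there and 0.16 with depth class as a term, and Lpl in the difference of the steps 0.091. Leaving out a library gave ranges of -0.018 to 0.14 for Cd63 at chronic 14 d, -0.081 to 0.63, -0.032 to 0.51 and -1.20 to 0.15 for Gpnmb, Cd9 and Fabp5 at acute 24 h (all against healthy), and -1.29 to 0.14, -0.60 to 0.46, -0.70 to 0.62 and -1.59 to 0.081 for Gpnmb, Trem2, Fabp5 and Atp6v0d2 from chronic 24 h to 72 h.

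Higher-depth libraries alone also ended the Fabp5 call of chronic 24 h against healthy (1.84 ± 0.83). Of 59 calls, no filter ended 8, DESeq2 0, DESeq2 size factors 1 and library size alone 1. Leaving out a library ended the call of Cd63 at acute 7 d against healthy in 3 of 8 cases (0.96 to 1.12, without healthy replicate 3 or acute 7 d replicate 1 or 3) and of Fabp4 at chronic 14 d in 6 of 8 (1.02 to 1.71, all but healthy replicate 4 and chronic 14 d replicate 1). The labels share replicate numbers between groups, but same-numbered libraries did not deviate together (median correlations by number from -0.016 to 0.045, against -0.009 between different numbers), so the numbers were not taken as pairs. The replicate block moved 4 of 107 values past the threshold, Fabp4 at acute 24 h and 7 d above healthy and from chronic 24 h to 72 h (-1.13 ± 0.36, adjusted p 0.0378, edgeR) and Cd9 from chronic 24 h to 14 d (-1.04 ± 0.35, adjusted p 0.0361, edgeR), and ended no call. Depth limits the changes of Gpnmb, Trem2, Fabp5 and Atp6v0d2, of which healthy and acute 24 h libraries held few or 0 counts.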
